A study of Mus musculus with 9 samples.

Results

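Thioglycollate-elicited peritoneal macrophages of MyD88-deficient mice (MyD88 KO) were compared after 1 h with 100 ng/ml lipopolysaccharide (LPS) and without stimulation. These 2 arrays, 1 for each state, belong to a set of 9 Affymetrix arrays that also covers 4 h of LPS, TRIF-deficient mice (TRIF KO) and wild-type mice. All mice had received thioglycollate, a broth that draws macrophages into the peritoneal cavity, and the knockouts are given as MyD88-/- and TRIF-/-, with no allele named. Strain background, age, sex, pooling of animals and array batch were not given in the sources used here. Each gene is represented by its brightest probe set, with levels on the log2 scale of the authors' RMA values, so that a difference of 1 is 2-fold. In all, 10032 genes that reached log2 = 6 on at least 1 array were analysed. With 1 array for each genotype and time, a difference between 2 arrays has no replicate check and is given without a p-value.

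Toll-like receptor 4 senses LPS at the cell surface and passes the signal on through pairs of adaptor proteins. MyD88 works at the plasma membrane and drives fast activation of NF-kB and of the MAP kinases. TRIF is engaged once the receptor has been taken up, and activates NF-kB, often later, together with the interferon regulatory factor IRF3. Without MyD88, TRIF is the adaptor that remains to the receptor, and cells that lack MyD88 are known for a delayed NF-kB response and for preserved interferon-dependent genes.

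Myd88 itself read 9.19 at 1 h and 9.30 without LPS in MyD88 KO, against 9.54 and 9.56 in TRIF KO and 9.58 and 9.57 in wild type. The signal was lower in the knockout but most of it was present. The position of the probe set relative to the deletion is unknown here, so the value need not test the label. TRIF's own gene, Ticam1, could not be read, since no analysed probe set was assigned to it. Macrophage markers were abundant, with a median level of 10.67 over 17 genes at 1 h in MyD88 KO and Lyz2, lysozyme, at 14.47. Their summed level was 15.92 at 1 h and 15.91 without LPS (log2). Neutrophil markers summed to 10.85 and 10.91, T or NK cell markers to 12.49 and 12.44, and mesothelium and fibroblast markers to 10.68 and 10.67, and the part of such cells in the results below was not tested. The T or NK sum is carried by Il7r, at 12.20 and 12.14, while the median of that list was 6.04 at both times and 6 of its 13 members were under log2 = 6.

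The early response of MyD88 KO macrophages was small, and the genes at its top encode chemokines, cytokines and their early regulators. At 1 h, 7 of the 10032 genes were at least 2-fold higher than without LPS (0.0698%) and 0 were at least 2-fold lower (0%). The 7 genes were the chemokines Cxcl2 and Cxcl1, the cytokines Tnf and Tnfsf9, the transcription regulators Egr1 and Nfkbiz, and the metabolic enzyme gene Acod1. In RNA of a whole culture, fewer cells of a type and less RNA per cell cannot be told apart. At 1.5-fold, 21 genes were higher (0.209%) and 1 was lower (0.00997%). Leaving out 0.5% of genes at each end, differences lay between -0.35 and 0.44, with a median of -0.02. The last gene past 2-fold was Cxcl1, at 1.13, and the next below it were Pde4b, Il1b and Nfkbia, at 0.98, 0.98 and 0.97.

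**Figure D1:**
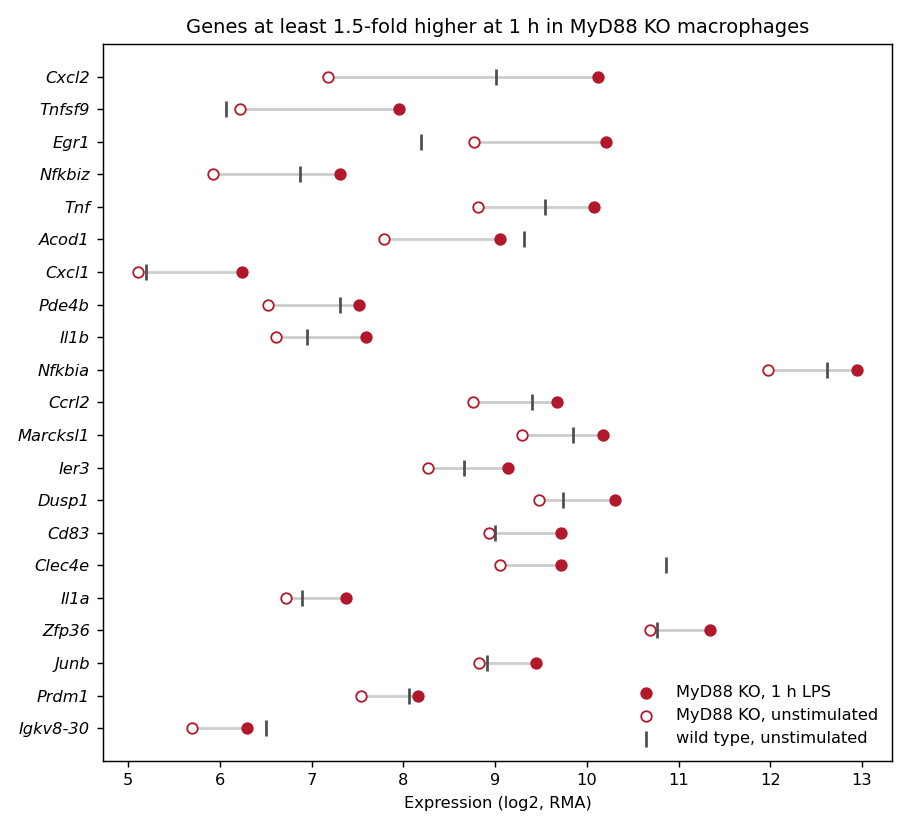
Levels (log2, horizontal axis) of the 21 genes at least 1.5-fold higher at 1 h in MyD88 KO macrophages, with 1 array per point: filled circles 1 h, open circles unstimulated, vertical ticks unstimulated wild type. Cxcl2 spans the widest gap, 10.12 against 7.18, and Acod1, Clec4e and Igkv8-30 are the genes whose 1 h level stays left of the wild-type tick.

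Chemokines that attract neutrophils held the largest difference. Cxcl2, a ligand of the receptor CXCR2, read 10.12 at 1 h and 7.18 without LPS in MyD88 KO, higher by 2.94. In TRIF KO it was higher by 2.63 and in wild type by 3.34, so that its increment in MyD88 KO lay between them. Its levels did not: 10.12 at 1 h was 2.24 below the 12.36 of wild type, and without LPS it was 1.84 below, 7.18 against 9.01. Cxcl1, a near relative with the same receptor, read 6.24 and 5.11, higher by 1.13. Its increments in TRIF KO and wild type were 3.24 and 3.98. Unstimulated cells read close to background for this gene, which compresses a difference on the log2 scale. Ppbp, Cxcl15 and Cxcl5, the other analysed members, stood at 0.28, -0.01 and -0.05, with 2 of 5 past 1.5-fold (0.209% of all genes).

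The promoters of 5 of these genes are shown because these genes were among the highest at 1 h in the absence of MyD88, and because some of them hold an NF-kB motif and others do not. The sequences come from RefSeq (GRCm38.p6), from 250 bases before to 50 after the start of the gene, 5′ to 3′ on the strand of the gene. Capitals mark matches to the NF-kB consensus, searched on both strands together with AP-1 (TGANTCA), the cyclic AMP response element (TGACGTCA), the interferon-stimulated response element and the CArG box of serum response factor.
Cxcl2, chr5:90903649-90903948, plus strand: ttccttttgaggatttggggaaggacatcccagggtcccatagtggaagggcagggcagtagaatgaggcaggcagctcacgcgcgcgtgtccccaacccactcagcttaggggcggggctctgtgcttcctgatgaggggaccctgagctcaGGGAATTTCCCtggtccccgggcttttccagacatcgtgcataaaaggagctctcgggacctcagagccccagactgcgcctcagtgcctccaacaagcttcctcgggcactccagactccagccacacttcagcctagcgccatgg
Cxcl1, chr5:90890995-90891294, plus strand: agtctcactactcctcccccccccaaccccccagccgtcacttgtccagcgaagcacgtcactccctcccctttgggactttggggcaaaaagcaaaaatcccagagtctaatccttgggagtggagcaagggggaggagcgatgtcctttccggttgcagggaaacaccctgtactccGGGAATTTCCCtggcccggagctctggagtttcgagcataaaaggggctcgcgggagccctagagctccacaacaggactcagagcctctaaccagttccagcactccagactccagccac
Nfkbia, chr12:55492598-55492897, minus strand: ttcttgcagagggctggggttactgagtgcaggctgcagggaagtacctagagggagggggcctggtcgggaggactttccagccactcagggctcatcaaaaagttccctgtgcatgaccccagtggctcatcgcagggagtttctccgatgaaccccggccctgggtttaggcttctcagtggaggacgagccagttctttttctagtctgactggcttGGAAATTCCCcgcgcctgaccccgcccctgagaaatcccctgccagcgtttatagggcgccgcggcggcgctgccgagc
Tnf, chr17:35201958-35202257, minus strand: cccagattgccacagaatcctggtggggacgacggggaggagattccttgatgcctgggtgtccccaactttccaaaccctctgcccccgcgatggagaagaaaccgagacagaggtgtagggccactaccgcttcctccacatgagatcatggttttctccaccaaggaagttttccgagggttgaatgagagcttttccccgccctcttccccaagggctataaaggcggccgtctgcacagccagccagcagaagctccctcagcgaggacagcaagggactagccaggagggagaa
Acod1, chr14:103046762-103047061, plus strand: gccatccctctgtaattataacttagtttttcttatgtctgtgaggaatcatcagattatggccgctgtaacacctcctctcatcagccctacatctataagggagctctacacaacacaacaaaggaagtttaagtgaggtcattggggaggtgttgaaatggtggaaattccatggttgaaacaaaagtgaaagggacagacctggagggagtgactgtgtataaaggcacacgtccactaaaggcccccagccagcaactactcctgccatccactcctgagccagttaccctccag

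Cxcl2 and Cxcl1 carry the same run, GGGAATTTCCC, in which the 10-letter consensus matches at 2 overlapping positions. It begins at position -97 from the gene start in Cxcl2 and at -71 in Cxcl1. Nfkbia holds GGAAATTCCC, beginning at -29. No match to any of the 5 motifs lies in these windows of Tnf and Acod1, which says only that these letters are not there. Over the 21 genes, 16 had a promoter entry. Of these, 6 had an NF-kB match in at least 1 entry (Cxcl2, Cxcl1, Pde4b, Nfkbia, Ccrl2 and Ier3), where 12.6% of the 8083 analysed genes with a promoter entry had one in at least 1 entry. Over single promoters the share was 8.46% of all 32851 and 10.7% of the 10338 of analysed genes. Pde4b has 4 entries and Ccrl2 3, which raises their chance of a match. AP-1 matched in Il1a and Prdm1 (7.11% of analysed genes, 7.81% of all promoters), the cyclic AMP element in Dusp1 (3.28% and 1.79%) and the CArG box in Zfp36 (1.61% and 1.63%). The interferon-stimulated response element matched in 0 of the 16 (3.97% of analysed genes, 3.44% of all promoters).

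Of the inflammatory cytokines, a small subset was higher. Tnfsf9, the ligand of the T cell costimulator 4-1BB, read 7.96 at 1 h and 6.21 without LPS in MyD88 KO, higher by 1.74. This was close to the 1.88 of TRIF KO, while wild type reached 4.06. Tnf, the central early cytokine of macrophages, read 10.08 and 8.82, higher by 1.26, against 2.26 in TRIF KO and 3.13 in wild type. Il1b read 7.60 and 6.61, higher by 0.98, and Il1a read 7.37 and 6.72, higher by 0.66. Both encode interleukin 1, and their increments in wild type were 2.88 and 1.78. These were 4 of 18 analysed cytokines past 1.5-fold, and the median of the list was -0.01, against -0.02 over all genes. Il6, induced late in macrophages, and Lif stood at -0.30 and -0.31, and Il6 read only 3.90 and 4.20, close to background. Of 10 CC chemokines, 0 were past 1.5-fold, where 0.209% of all genes were. Ccl2, which attracts monocytes, was highest with 0.33, and Ccl3, higher by 1.13 in wild type, was at 0.20.

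Inhibitors and cofactors of NF-kB had 2 of 9 members past 1.5-fold, and its subunits 0 of 4, where 0.209% of all genes were. At that share, 0 of 4 says little of the subunits. Nfkbiz encodes IkB-zeta, a nuclear cofactor needed for part of the secondary response genes. It read 7.31 at 1 h and 5.92 without LPS in MyD88 KO, higher by 1.38, against 3.32 in TRIF KO and 3.86 in wild type. A second probe set of the gene was higher by 0.54 in MyD88 KO and by 2.52 in wild type. Nfkbia, the inhibitor IkB-alpha that NF-kB induces to shut itself off, read 12.94 and 11.97, higher by 0.97. Its increment was 0.59 in TRIF KO and 0.86 in wild type. The probe set used is near the bright end of the arrays, and 2 others of the gene were higher by 1.44 and 1.27 in MyD88 KO and by 1.77 and 1.48 in wild type, so the order of the genotypes depends on the probe set. Nfkbie, another IkB protein, and Tnfaip3, the deubiquitinase A20, were higher by 0.48 and 0.41. The list had a median of 0.22. The subunits Rel, Relb, Nfkb2 and Rela were higher by 0.30, 0.14, 0.11 and 0.09.

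Immediate early genes, which need no new protein for their transcription, contributed Egr1, Ier3 and Junb. Egr1, a zinc finger factor downstream of ERK signalling, read 10.21 at 1 h and 8.77 without LPS in MyD88 KO, higher by 1.45. TRIF KO and wild type were higher by 2.12 and 2.82. Unlike most members, Egr1 was higher in unstimulated MyD88 KO cells than in wild type (8.77 against 8.19). Unstimulated TRIF KO read 8.85, close to MyD88 KO, so the wild-type array was the low one. Ier3, an early response gene linked to cell survival, read 9.14 and 8.27, higher by 0.88. Btg2, an inhibitor of proliferation, Fos and Ier2 were higher by 0.57, 0.46 and 0.44. A second probe set of Btg2 was higher by only 0.11 in MyD88 KO and by 0.80 in wild type. Of 25 analysed EGR and other immediate early genes, 2 passed 1.5-fold, where 0.209% of all genes did, and the list median was 0.16. Junb was the 1 of 13 AP-1 and ATF factors to pass, with 9.44 and 8.82. Jun, Atf3 and Fosb stood at 0.05, -0.02 and -0.26.

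Some regulators of signalling were higher as well. Dusp1, the phosphatase that inactivates p38 and JNK, read 10.30 at 1 h and 9.47 without LPS, higher by 0.83. Pde4b, which degrades cyclic AMP, read 7.51 and 6.53, higher by 0.98. They were 2 of 15 analysed genes past 1.5-fold in a list of MAP kinase phosphatases, SOCS genes and other regulators such as Pde4b. Over all genes, 0.209% were past 1.5-fold. Socs3, a brake on cytokine receptors, was higher by 0.38 with the probe set used, against 1.05 in TRIF KO and 1.87 in wild type. Its other 2 probe sets were higher by 1.37 and 1.56 in MyD88 KO, so the size for this gene depends on the probe set. Zfp36, tristetraprolin, which marks cytokine mRNAs for decay, read 11.34 and 10.69, higher by 0.65. Zc3h12a, the endonuclease Regnase-1 with the same class of targets, read 6.27 and 6.23, a difference of 0.03, against 0.89 in TRIF KO and 1.29 in wild type.

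Another set of members started low in MyD88 KO and, with the probe sets used, had increments close to or above those of wild type. A low unstimulated value itself raises the increment, and so took part in their choice. Acod1, the enzyme that makes itaconate, read 9.05 at 1 h and 7.79 without LPS, higher by 1.26, against 0.69 in TRIF KO and 1.33 in wild type. Its 1 h level was still 0.26 below unstimulated wild-type cells (9.31). Clec4e, the receptor Mincle, read 9.72 and 9.05, higher by 0.66, where TRIF KO and wild type were higher by 0.38 and 0.36. A second probe set of Clec4e was higher by 0.75 in MyD88 KO and by 0.71 in wild type, nearly the same. Marcksl1, an actin-associated protein, read 10.17 and 9.29, higher by 0.88, against 0.49 and 0.69. Its other probe sets were higher by 1.03, 0.83 and 0.08 in MyD88 KO, against 0.75, 0.34 and 0.46 in wild type. The order of the genotypes thus depends on the probe set. Below 1.5-fold, Olr1, a scavenger receptor, Tlr2, which senses bacterial lipoproteins, and Serpinb2, a protease inhibitor, were higher by 0.56, 0.54 and 0.54. Tlr2 was chosen after its values were seen. Cd83, a surface protein of activated antigen-presenting cells, was higher by 0.78, the chemerin-binding receptor Ccrl2 by 0.91, and Prdm1, the repressor Blimp-1, by 0.62. Wild type exceeded these 3, with 1.30, 1.19 and 0.80. Of 34 macrophage effector genes, 4 passed 1.5-fold, where 0.209% of all genes did, and the list median was 0.14. Nos2, a hallmark of later activation, stood at 0.00. Ptgs2 stood at 0.08 in MyD88 KO, against 0.65 in TRIF KO and 1.15 in wild type.

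Interferon-dependent genes, for which the TRIF branch is known, included none of the 21 members. Of 37 interferon-stimulated genes, 0 were past 1.5-fold in either direction, a count that the shares over all genes (0.209% higher, 0.00997% lower) do not set apart, and the median was 0.02, against -0.02 over all genes. The highest was Irf1, a transcription factor that NF-kB also induces, with 9.87 at 1 h and 9.33 without LPS, a difference of 0.54. Ifit2 and Gbp2 stood at 0.35 and 0.34. Cxcl10, a T cell-attracting chemokine, read 7.33 and 6.85, a difference of 0.48, against 0.06 in TRIF KO and 0.58 in wild type. That is above 0.44, the upper bound that 0.5% of all genes passed in MyD88 KO. Ccl5 read 7.71 and 7.60. Ifnb1, interferon beta, read 5.55 and 5.46, below the limit of log2 = 6 on every array. The 16 analysed genes of TRIF branch signalling had a median of 0.00, and 0 passed 1.5-fold. Among them Irf7 was highest, at 0.22. Irf3 read 9.50 at both times, and Tbk1, the kinase that activates it, stood at -0.03. The 7 analysed TLR4 receptor and adaptor genes, among them Tlr4 at -0.11 and Cd14 at 0.09, also had 0 past 1.5-fold, which at 0.209% over all genes says little of either list.

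**Figure D2:**
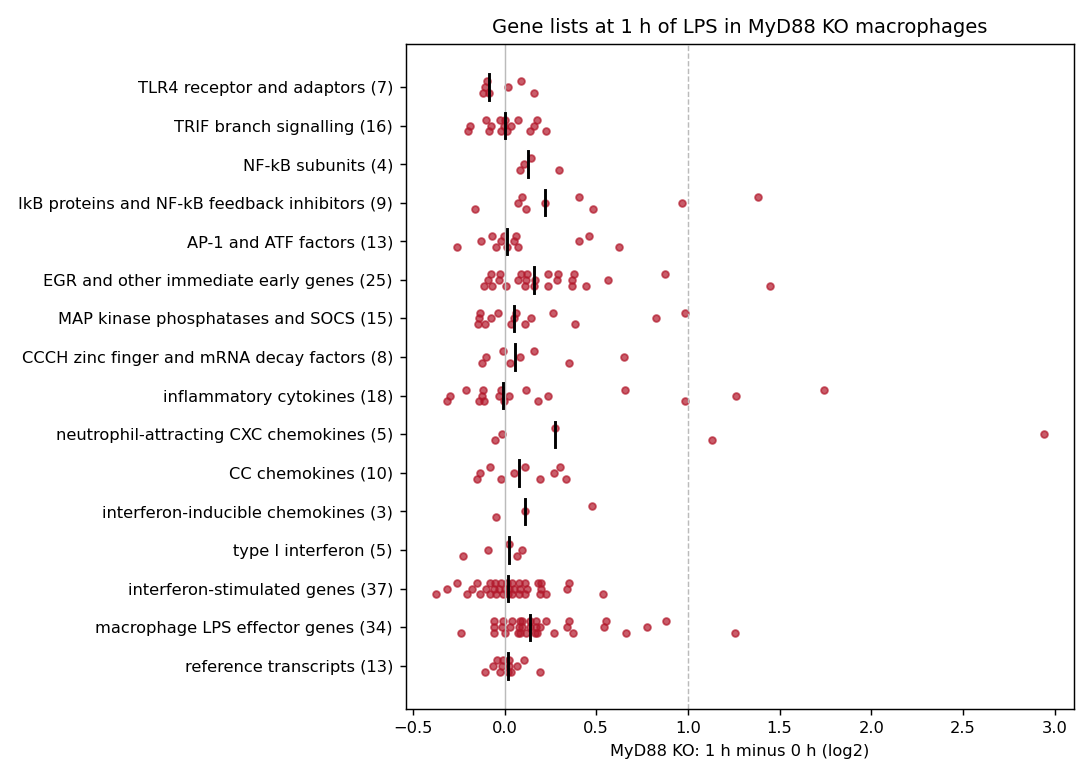
Log2 difference at 1 h minus 0 h in MyD88 KO (horizontal axis) for the members of 16 gene lists, with the number of members analysed in brackets; each point is a gene, black bars are list medians and the dashed line is 2-fold. Points beyond the dashed line lie in 5 lists, Cxcl2 at 2.94 farthest out, and the 37 interferon-stimulated genes lie between -0.37 and 0.54.

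At the low end there was no comparable group. The 10 lowest genes were Leap2, Srpx, Sostdc1, Il34, Rsrp1, Cdc7, Ly6g6c, Auts2, Khdc1b and Thrb, at -0.59 to -0.44. Leap2, a secreted peptide known from liver, read 5.48 at 1 h and 6.06 without LPS. Il34, a ligand of the CSF1 receptor, read 6.32 and 6.80, and Thrb, a thyroid hormone receptor, 6.21 and 6.64. Of the 10 lowest, 8 had their highest value of all 9 arrays on the unstimulated MyD88 KO array. That array was the highest of the 9 for 18.0% of all genes, but its high values themselves took part in the choice of the 10. In TRIF KO and wild type these genes had median differences of -0.02 and 0.09.

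Members at the lower edge of the 21 rest on less. Igkv8-30, an immunoglobulin kappa segment, read 6.29 at 1 h and 5.70 without LPS. It was at 0.03 in TRIF KO and -0.24 in wild type. B cell markers as a list had a summed level of 11.27 at 1 h and 11.22 without LPS (log2), within 11.05 to 11.37 on all 9 arrays, and 3 of the 10 measured were under log2 = 6 at 1 h. The sum is carried by Cd22, at 10.09 and 10.18. Ighm, the immunoglobulin heavy chain mu, went the same way as Igkv8-30, with 9.02 at 1 h and 8.58 without LPS in MyD88 KO, higher by 0.43, against 0.05 in TRIF KO and -0.28 in wild type. The part of B cells in these values was not tested. Just outside the 21, Arhgap5 and Erbin, a GTPase regulator and a scaffold protein, were at 0.58 and 0.56 with the probe set used. Of their 3 probe sets each, 2 of Arhgap5 and 1 of Erbin were above 0.

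Which part of the wild-type response remained can be asked of genes chosen without the MyD88 KO arrays. In wild type, 24 genes were at least 2-fold higher at 1 h (0.239%). Of these 24, MyD88 KO had 7 past 2-fold, 16 past 1.5-fold and 23 above 0. Over all genes in MyD88 KO, the shares were 0.0698%, 0.209% and 41.9%. The median difference of these 24 in MyD88 KO was 0.80, against -0.02 over all genes. Taken the other way, all 7 genes at 2-fold in MyD88 KO, 100% of them, were among the 24, of which they made up 29.2%. The 8 wild-type genes below 1.5-fold with the probe set used were Socs3, Phlda1, Tnfaip3, Zc3h12a, Gdap10, Irf1, Ptgs2 and Ccl3, some of them named after their values were seen, with -0.22 for Gdap10 as the lowest value of the 24. For Socs3 this turns on the probe set. Against unstimulated wild type as the baseline, 6 of the 24 were past 1.5-fold, with a median of 0.46, where 57 of all 10032 genes were.

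Genes chosen from TRIF KO give a comparison in which neither MyD88 KO nor wild type took part in the choice. In TRIF KO, 14 genes were at least 2-fold higher at 1 h (0.14%). Of these 14, 6 were 2-fold (0.0698% of all genes) and 13 were 1.5-fold higher (0.209%) in MyD88 KO. The other was Socs3 with the probe set used, at 0.38, while its other 2 probe sets were past 2-fold, at 1.37 and 1.56. Their median increment was 0.98 in MyD88 KO and 2.34 in wild type. In all 14 the increment in MyD88 KO was the smaller one, where 50% of all genes had a smaller increment in MyD88 KO. Over the 24 wild-type genes the increment was below that in TRIF KO for 22, the exceptions being Cxcl2 and Acod1, where 57.6% of all genes were below.

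**Figure D3:**
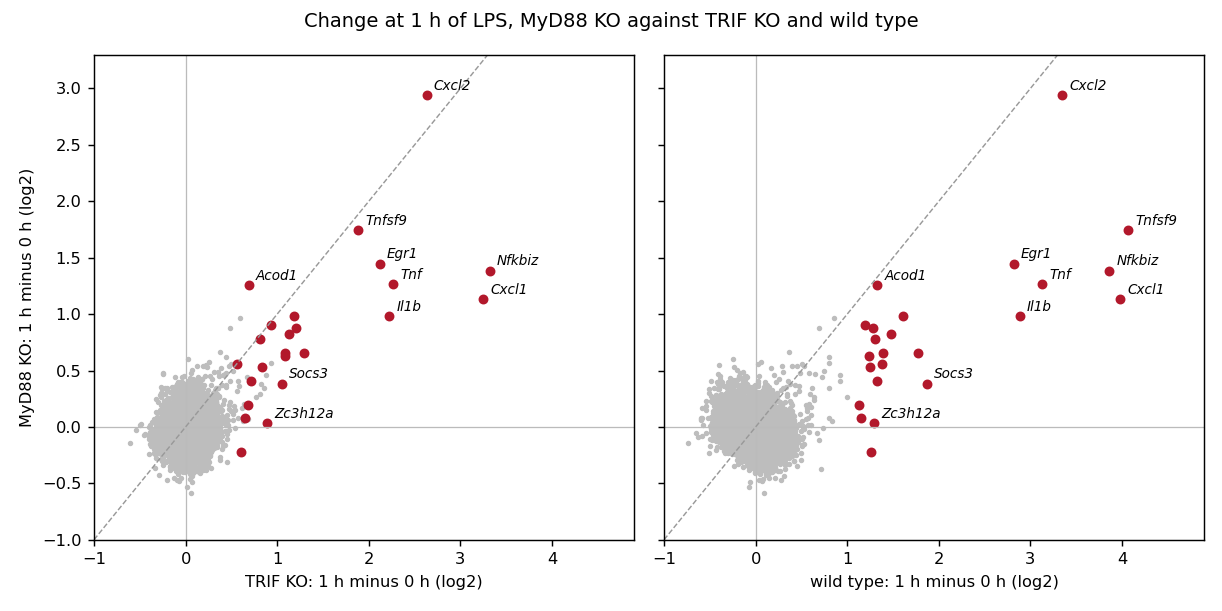
Log2 difference at 1 h minus 0 h in MyD88 KO (vertical axis) against the same in TRIF KO (left) and wild type (right), 1 point per gene; red points are the 24 genes at least 2-fold higher in wild type and the dashed line marks equal change. In the right panel all 24 lie below the line, which their choice by the wild-type values favours; in the left Cxcl2 and Acod1 lie above it.

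Whether the smaller increments exceed the spread was tested with limma over all 9 arrays. The increment at 1 h in MyD88 KO was set against the mean of TRIF KO and wild type, whose disagreement served as the error. The MyD88 KO arrays were assumed to vary like the others. Of 10032 genes, 1 was lower in MyD88 KO at a Benjamini-Hochberg adjusted p under 0.05 (0.00997%) and 0 were higher (0%). At an unadjusted p under 0.05 there were 476 lower (4.74%) and 304 higher (3.03%). The gene that passed was Nfkbiz, with a difference of -2.21 ± 0.211 (SE; limma, Benjamini-Hochberg adjusted p = 0.00418), its increment of 1.38 being below both 3.32 and 3.86. With low values raised to log2 = 6 its difference was -2.28 ± 0.262 (SE), as large as before, but it did not pass (limma, adjusted p = 0.619). Without a separate term for MyD88 KO at 4 h the difference was -1.36 and did not pass (limma, adjusted p = 0.996).

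The other large differences did not pass. Cxcl1 had a larger difference than Nfkbiz, with a larger error, at -2.48 ± 0.364 (SE; limma, Benjamini-Hochberg adjusted p = 0.134). With the 6 arrays at 0 and 1 h alone, Cxcl1 did pass at the same difference, one of 19 genes lower in that fit. Zc3h12a, named after its values were seen, was at -1.06 ± 0.175 (limma, Benjamini-Hochberg adjusted p = 0.266). Tnf, Il1b, Tnfsf9 and Egr1 were at -1.43, -1.57, -1.23 and -1.02 on the log2 scale, each with an adjusted p of at least 0.626 by limma. Tnfsf9 increments differed between TRIF KO and wild type (1.88 and 4.06), which widened its error to 0.60. Cxcl2 was at -0.04 ± 0.29 and Acod1 at 0.25 ± 0.27 (SE), smaller than their errors.

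Many of these genes also stood lower in MyD88 KO before stimulation. Of the 24 wild-type genes, 22 were lower in unstimulated MyD88 KO than in unstimulated TRIF KO, with a median of -0.33, where 44.4% of all genes were lower. Of the 14 genes chosen from TRIF KO, 12 were lower in unstimulated MyD88 KO than in wild type, with a median of -0.22, where 45% of all genes were lower. Over the 21 members of the MyD88 KO response, Cxcl2, Clec4e and Acod1 were farthest below unstimulated wild type, at -1.84, -1.81 and -1.52. At 1 h, the 14 had a median of -1.49 against stimulated wild type and 14 of 14 were below it, where 47.5% of all genes were. The median over the 24 was -1.03, in a set that the wild-type level at 1 h helped to choose. The 1 h level in MyD88 KO was below unstimulated wild-type cells for 2 of the 24, Acod1 and Zc3h12a, where 54.1% of all genes were below. Over the 21 members, the unstimulated MyD88 KO array was the lowest of all 9 arrays for 18, against 10.4% of all genes, and this low value itself took part in their choice.

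**Figure D4:**
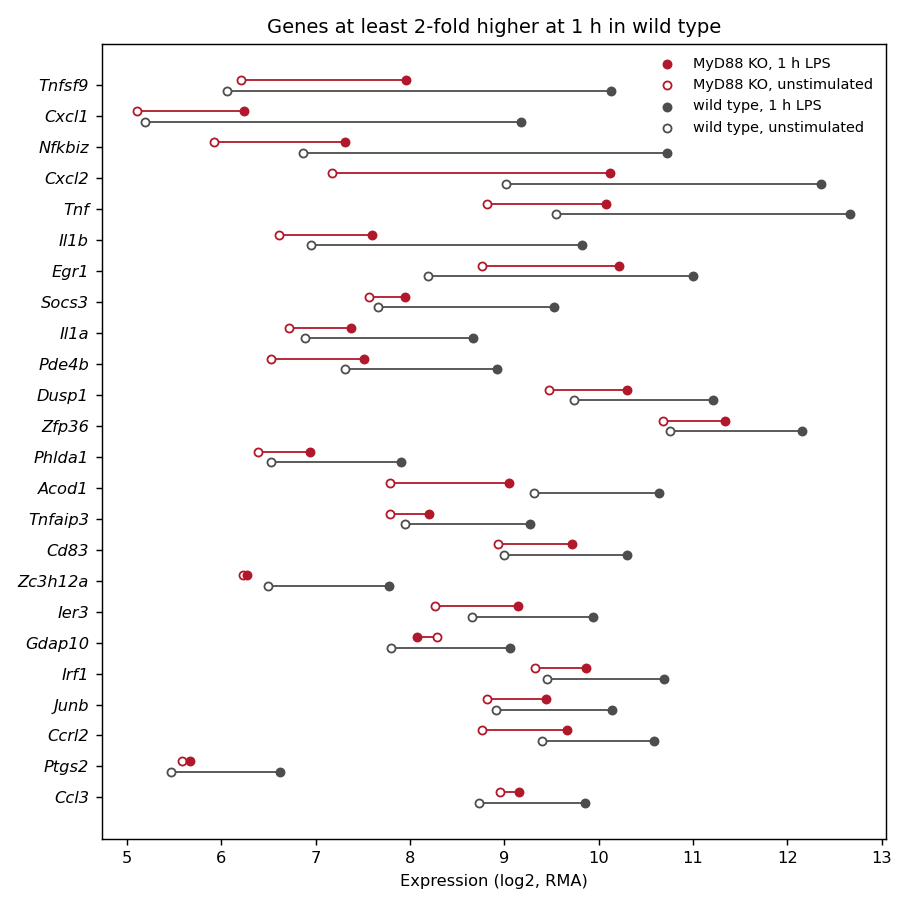
Levels (log2, horizontal axis) of the 24 genes that passed 2-fold at 1 h in wild type, shown for MyD88 KO (red, upper line of each pair) and wild type (grey, lower line); filled circles are 1 h of LPS, open circles unstimulated, 1 array each. Every filled red circle lies left of its grey partner, with a median difference of -1.03, and the red lines of Zc3h12a, Ptgs2, Ccl3 and Gdap10 are short.

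The MyD88 KO array at 4 h, which shares the unstimulated array with the 1 h comparison, shows different courses among the members. Cxcl2 read 7.18, 10.12 and 9.10 at 0, 1 and 4 h, and Tnf 8.82, 10.08 and 9.61. Egr1 read 8.77, 10.21 and 8.28, ending below its start. Il1b, Zfp36 and, with the probe set used, Btg2 were back near the unstimulated level at 4 h, at -0.03, 0.02 and -0.21. Acod1 was higher still at 4 h, with 7.79, 9.05 and 12.21, as were Clec4e with 9.05, 9.72 and 12.07 and Marcksl1 with 9.29, 10.17 and 12.14. Nfkbia read 11.97, 12.94 and 12.94, a plateau. Among interferon-dependent genes, Ccl5 read 7.60, 7.71 and 9.63 and Cxcl10 6.85, 7.33 and 9.38, both highest at 4 h. For Ifit1 and Ifit2, antiviral effectors, the differences from 0 h were 0.11 and 0.35 at 1 h, and 2.24 and 2.18 at 4 h. Over the 24 genes chosen in wild type, MyD88 KO was lower at 4 h than at 1 h for 16 and higher for 8, where 45.9% of all genes were higher.

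**Figure D5:**
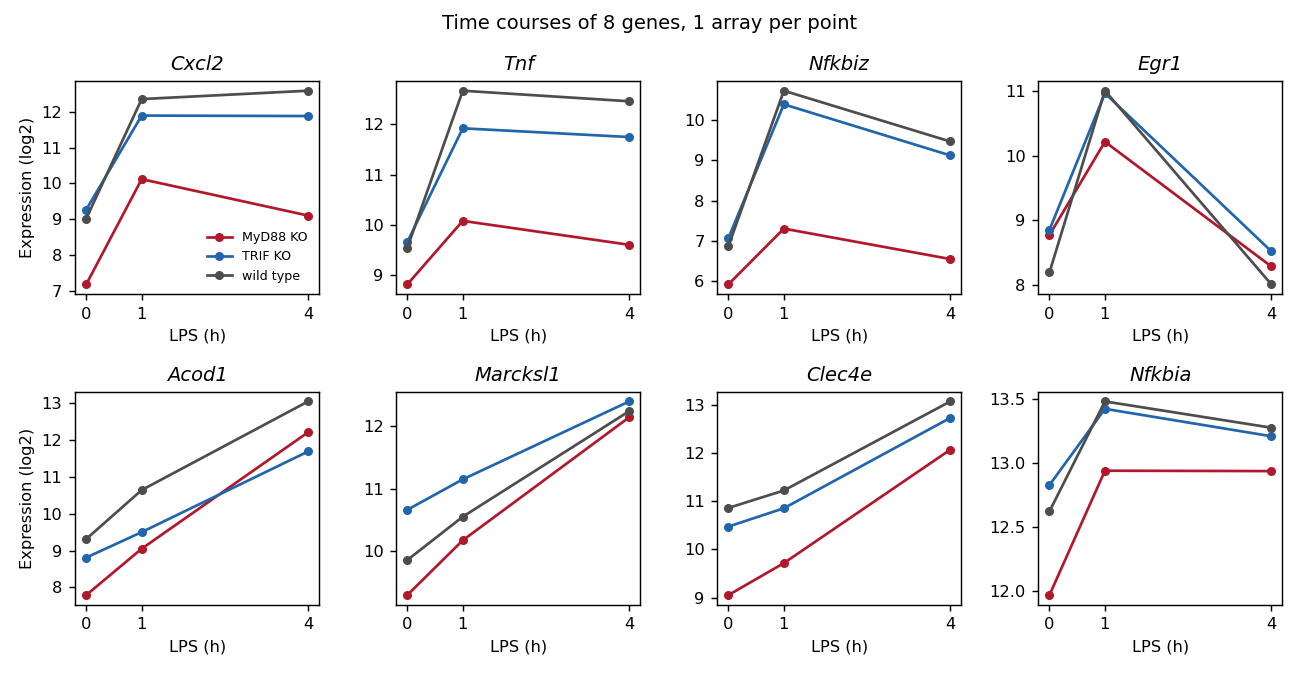
Levels (log2, vertical axes with their own ranges) of 8 genes at 0, 1 and 4 h of LPS in MyD88 KO (red), TRIF KO (blue) and wild type (grey), 1 array per point. In MyD88 KO Cxcl2, Tnf, Nfkbiz and Egr1 are highest at 1 h, Acod1, Marcksl1 and Clec4e at 4 h, and Nfkbia holds 12.94 at both times.

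Over the 9 arrays, the genes whose levels ran most like those of Cxcl2 were Tnf, Prdm1, Pde4b and Tnfaip3, with Pearson's r of 0.977, 0.962, 0.962 and 0.960. All values come from the same arrays and share their scaling.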

How the data were processed

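The authors deposited log2 expression values for 22690 Affymetrix probe sets. Per the submitters' processing notes they were made with RMA, a method of background correction, quantile normalization and probe summary. No label or header names the version or says if the 9 arrays went through it jointly. Of the probe sets, 20393 had 1 gene symbol in the platform annotation, 691 had several and 1606 were not listed. Symbols were updated through gene identifiers to RefSeq (GRCm38.p6), where 20364 matched. The probe set with the highest mean over 9 arrays stood for a gene, and 10032 of 12394 genes reached log2 = 6 on at least 1 array.

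Increments are 1 h minus 0 h of the same genotype. limma 3.58.1 (R 4.3.3) fitted genotype, time and separate terms for MyD88 KO at 1 h and 4 h, leaving 2 residual degrees of freedom plus a prior of 9.18. The test was two-sided. Nothing says that arrays came from separate mice, so p-values cover only the spread between these arrays. That spread comes from the disagreement of TRIF KO and wild-type increments at 1 h and 4 h. A gene whose response needs TRIF therefore has a larger error and is harder to call. On simulated data for this contrast (10032 genes) limma recovered 96% of 100 genes changed by 1 and 100% of 100 changed by 2, with 11 false calls. The simulated TRIF KO and wild type shared the same true increments. These figures therefore do not cover genes whose increments differ between TRIF KO and wild type, and recovery for such genes was not tested. The members and gene lists were chosen with earlier results of these data known. Named genes were Myd88, the 25 highest and 10 lowest in MyD88 KO at 1 h, limma calls, list members past 1.5-fold, the 10 highest in wild type and the 4 most like Cxcl2. Other list members are given as list extremes or as examples. Alternatives covered probe set choice, filters, floors, scaling, baseline, threshold and model. The number of arrays limits the precision.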

Additional observations from a re-analysis of the deposited data

Results flagged for a closer look

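The increment of Nfkbiz at 1 h differed between MyD88 KO and the mean of TRIF KO and wild type by -2.21 (log2), with an adjusted p of 0.00418 from limma, lower than in 2 of 2 other genotypes. It was the only gene of the 10032 to pass in the fit of all 9 arrays with separate terms for MyD88 KO at 1 h and 4 h; other models called other numbers of genes. No group held enough arrays for a search for outlying samples.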

How the results depend on the processing

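The 7 genes at 2-fold became 12 probe sets when each probe set was counted on its own, 13 genes against the wild-type baseline, 4 against the mean of the 3 unstimulated arrays and 21 at 1.5-fold. Under either other baseline, 4 of the 7 remained and Acod1, Nfkbiz and Tnf were lost, so most of the 13 are other genes. The count of 0 lower genes became 8, 1 and 1 under the wild-type baseline, the mean baseline and 1.5-fold. Against unstimulated wild type, Acod1 stood at -0.26. Of the 24 wild-type genes, 6 in place of 16 were 1.5-fold higher over unstimulated wild type and 10 over the mean of the unstimulated arrays, and of the 21 members 6 and 10. These baselines for the 24 and for the lists were chosen after seeing the data. With the 6 arrays at 0 and 1 h alone, limma called 19 genes lower and 7 higher, with the same error for all genes. It called 0 with low values raised to log2 = 6, where the differences of Nfkbiz and Cxcl1 were -2.28 and -2.63, and 0 without a term for MyD88 KO at 4 h, where they were -1.36 and -0.79. Centring on the reference transcripts shifted all differences by -0.10, and 15 of the 21 members stayed past 1.5-fold. Centring on the median deviation of these transcripts, added after seeing the data, shifted all differences by -0.02, and 20 stayed. With low values raised to log2 = 6, 19 stayed. Under these settings no list median moved by more than 0.16, the SD over genes between unstimulated TRIF KO and wild type. For both centrings this follows from the size of the shift alone. With the wild-type baseline, medians moved to -0.38 for Myd88, -0.11 for NF-kB subunits, -0.081 for CXC chemokines, 0.28 for CC chemokines, -0.19 for effector genes, -0.15 for B cell markers and 0.25 for mesothelium and fibroblast markers. With the mean baseline, they moved to -0.28 for Myd88, -0.069 for NF-kB subunits, -0.064 for CXC chemokines and -0.067 for effector genes. No paired analysis was possible because each group holds 1 array. Dim probe sets limit small differences near log2 = 6.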

Other observations

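Heat shock and cell handling genes, which can respond to culture steps, held 0 of 13 members past 1.5-fold in MyD88 KO at 1 h. At 0.209% over all genes, a count of 0 says little of the list. Its median was 0.05. Hmox1, heme oxygenase, read 13.02 at 1 h and 13.01 without LPS, and Hspa1b read 5.53 and 5.47. The 13 reference transcripts had a median of 0.02, from -0.11 for Tubb5 to 0.19 for Tbp.

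Among 2297 probe sets with several genes or none in the annotation, 0 were 2-fold higher at 1 h in MyD88 KO and 4 were 1.5-fold higher. The highest, without a gene in the annotation, read 8.98 at 1 h and 8.23 without LPS. It was also higher in TRIF KO and wild type. Another, shared by several immunoglobulin kappa genes, read 8.84 and 8.14 in MyD88 KO and was lower at 1 h in wild type.

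Across all 10032 genes the increments at 1 h in MyD88 KO correlated with those in TRIF KO at 0.28 and with those in wild type at -0.03. Over the 24 genes at least 2-fold higher in wild type, a set chosen by the wild-type values, these correlations were 0.68 and 0.70. Genes are not independent replicates, and each genotype's increments share its own unstimulated array.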
